A study of Arabidopsis thaliana with 8 samples.

Results

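Genes of the MADS-box family that promote the change from leaf to flower production were followed in *Arabidopsis thaliana* leaves. The set was named by locus and not by a rule on measured values, but earlier results of these data were known. The study had already reported *FUL* as down-regulated in every genotype other than wild type. The genes are *SOC1*, *FUL*, *AGL24*, *AGL42*, *AP1*, *CAL*, *SEP1*, *SEP2*, *SEP3* and *SEP4*. Of these 10 genes, 9 were among the 21960 genes of the expression tables, and *CAL* (AT1G26310) was not analysed here. RNA came from leaves of plants aged 4 weeks under 16 h of light and 8 h of darkness, at 20 °C by the labels and slightly warmer by the study's methods. Wild type was the accession Col-0, and co-SAIL is the line labelled as mutant for *CONSTANS* (*CO*), the photoperiod regulator. The lines 35S::miP1a and 35S::miP1b express microProteins, small B-Box proteins that bind CO, with a FLAG tag from the 35S promoter, a viral promoter active in most plant tissues. All 4 genotypes were grown alike and each had 2 libraries, 8 in all. The series text calls the 2 libraries technical replicates and the methods call them samples. The spread between libraries on which the p-values below rest may therefore be technical. In the main test that spread is 1 value shared by all genes, not the spread of the gene itself. Whether each transgenic genotype was 1 line or several is not given in the sources used here.

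In long days CO protein activates *FT* in the veins of the leaf, and FT protein travels to the shoot tip, where it works with FD to switch on *SOC1*, *FUL* and *AP1*. *SOC1* and *FUL* are also transcribed in leaves, where *FUL* is known to respond to *FT*. SPL transcription factors, which accumulate as the plant ages, activate *SOC1* and *FUL* as well, whereas the MADS-box proteins FLC and SVP repress *SOC1*. *AP1*, *CAL* and the *SEP* genes act later and give flower meristems and floral organs their identity.

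In TAIR10.1, *FUL* (AT5G60910) spans bases 24502434 to 24506269 of chromosome 5, with 9 separate exonic blocks, and *SOC1* (AT2G45660) spans bases 18807505 to 18811125 of chromosome 2, with 7. Both are read from the minus strand. Their promoters are printed because these were the 2 genes of the set lower than wild type at an FDR below 0.001 in every other genotype. The 300 bases before the annotated start of each gene (RefSeq, TAIR10.1), at chr5:24506270-24506569 for *FUL* and chr2:18811126-18811425 for *SOC1*, read 5′ to 3′ on the strand of the gene as follows, with GTAC and TGTGG (or CCACA, its reverse complement) in capitals.
FUL: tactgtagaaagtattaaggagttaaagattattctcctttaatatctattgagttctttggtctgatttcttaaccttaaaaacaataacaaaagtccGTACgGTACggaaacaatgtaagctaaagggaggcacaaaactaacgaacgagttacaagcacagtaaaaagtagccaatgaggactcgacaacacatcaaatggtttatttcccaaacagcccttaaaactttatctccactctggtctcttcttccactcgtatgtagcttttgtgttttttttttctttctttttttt
SOC1: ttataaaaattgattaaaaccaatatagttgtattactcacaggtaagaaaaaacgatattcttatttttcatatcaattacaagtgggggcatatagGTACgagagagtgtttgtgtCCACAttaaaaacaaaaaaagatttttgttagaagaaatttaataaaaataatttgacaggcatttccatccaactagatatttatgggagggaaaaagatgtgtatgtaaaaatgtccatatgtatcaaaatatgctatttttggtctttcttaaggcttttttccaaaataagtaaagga
GTAC is the core of SPL binding sites, and CCACA is found in sequences that CO binds. *FUL* had 2 matches to GTAC, which begin 201 and 196 bases before its start, and 0 to TGTGG. *SOC1* had 1 match to GTAC, which begins 202 bases before its start, and 1 to TGTGG, at 182 bases. On both strands, GTAC was found in 6 of the 10 promoters and TGTGG in 4, and the 2 motifs overlapped in neither printed promoter. GTAC occurred in 39.7% of the 27443 promoters of protein-coding genes of this length, and TGTGG in 32.8%. The CArG box, which MADS-box proteins bind, was found in 0 of the 10 promoters and in 2.92% of all promoters. These matches describe the letters of a short window and do not show binding.

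Whole reads per library were recovered from the tables, as described under the processing, and libraries held between 14696808 and 18884723 effective reads. The numbering of libraries in the labels could not be linked to the recovered reads, so the 2 libraries of a genotype are called the deeper and the shallower. Values are given as reads and as counts per 1000000 effective reads (CPM), and levels of different genes are compared as CPM per kb of exon. The leaf genes *RBCS1A*, with 654911 to 794961 reads per genotype, and *RCA* were abundant, as the label of the tissue requires. The one meristem marker in the tables, *KNAT1*, had 2 reads in all. The 6 floral organ markers together had between 7 and 16 reads in a library, of which *AG* had at most 11. *CO* mRNA gives no check of the co-SAIL label, with 99 and 77 reads there against 89 and 81 in Col-0. In bulk leaf RNA, fewer expressing cells and less RNA per cell cannot be told apart.

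The set spanned a wide range of levels, and its 9 genes fell into 3 that were well expressed, 2 that were weakly expressed and 4 near the detection limit. In Col-0 *SOC1* was the highest at 21.2 CPM per kb, followed by *SEP4* at 14.0 and *AGL24* at 11.3. *FUL* stood at 1.83 CPM per kb and *SEP1* at 0.464. In co-SAIL the order at the top was instead *SEP4* at 16.4, *AGL24* at 11.7 and *SOC1* at 9.23 CPM per kb. *SOC1* was also below both in 35S::miP1b, at 9.20 CPM per kb, and below *SEP4* alone in 35S::miP1a, at 12.6. The plot of levels per kb by library shows this change of order.

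**Figure D1:**
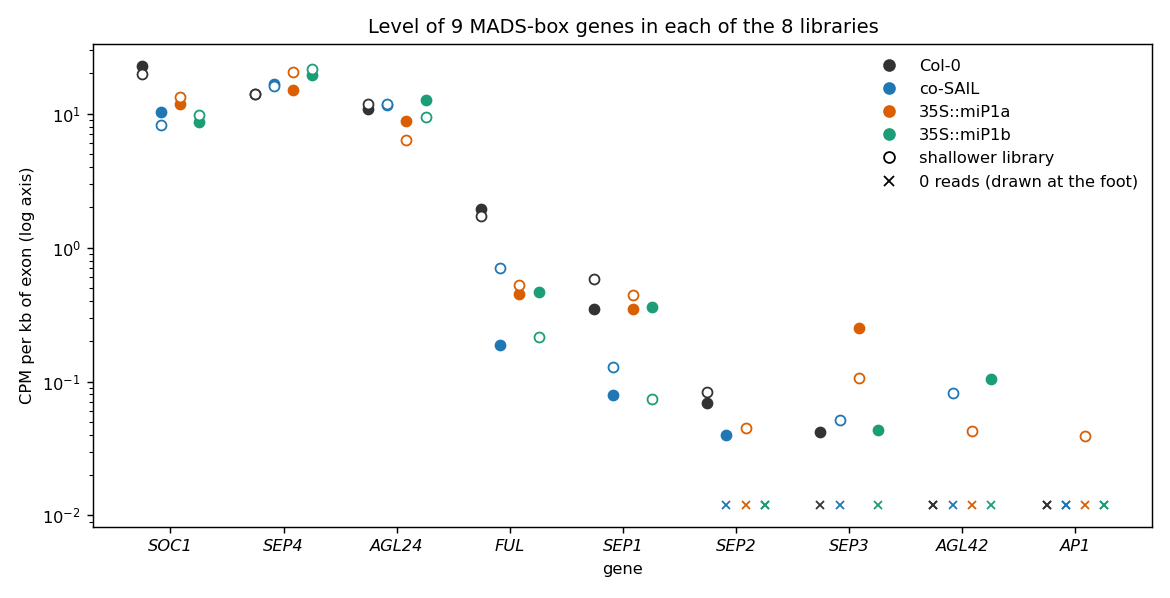
Level of 9 MADS-box genes in each of the 8 libraries, as CPM per kb of exon on a log axis. Filled points are the deeper and open points the shallower library of a genotype, and crosses mark libraries with 0 reads. *SOC1* is above *SEP4* in both Col-0 libraries and below it in the other 6.

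*FUL*, a close relative of *AP1* that promotes flowering and later patterns the fruit, was lower than wild type in all 3 other genotypes. It had 48 and 35 reads in the deeper and shallower Col-0 libraries, which is 2.54 and 2.24 CPM. In co-SAIL it had 4 and 14 reads, or 0.244 and 0.920 CPM. In 35S::miP1a it had 11 and 10 reads, and in 35S::miP1b 11 and 5 reads. Every library of the other genotypes was thus below both Col-0 libraries, and the 3 genotypes overlapped among themselves.

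The log2 change of *FUL* against Col-0 was -2.06 ± 0.41 (SE) in co-SAIL, with an adjusted p of 6.2e-06 in a negative binomial likelihood ratio test fitted across all genes. It was -1.93 ± 0.39 in 35S::miP1a (adjusted p = 6.0e-06, same test) and -2.41 ± 0.43 in 35S::miP1b (adjusted p = 1.4e-08). The study's thresholds, an FDR below 0.001 and a change of at least 4-fold, were passed in co-SAIL and 35S::miP1b, and in 35S::miP1a the change of 3.81-fold fell short of the minimum. That test rests on 1 dispersion shared by all genes, a coefficient of variation of 11.5%. In limma on the reads per library, an alternative chosen after seeing the data, the adjusted p of *FUL* was 0.152 in co-SAIL, 0.0667 in 35S::miP1a and 0.0247 in 35S::miP1b. With a dispersion of 0.04 in the likelihood ratio test it was 0.00144, 0.00102 and 1.2e-05. Without the deeper co-SAIL library, the one with 4 reads, the log2 change was -1.38 and the adjusted p of the likelihood ratio test rose to 0.0596. Without the shallower co-SAIL library, the one with 14 reads, it was -3.28, with an adjusted p of 4.0e-06. Without the deeper Col-0 library it was -1.96, with an adjusted p of 0.00215. In 35S::miP1a the adjusted p was 0.00143 without the deeper Col-0 library and 0.00463 without the deeper 35S::miP1a library, while the log2 change passed 4-fold without the shallower library of either genotype, at -2.01 and -2.03. In 35S::miP1b the FDR was passed with each library left out in turn, and the change fell just short of 4-fold, at -1.97, without the shallower 35S::miP1b library.

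*SOC1*, a MADS-box protein that integrates photoperiod, age and temperature signals, was also lower in all 3 genotypes, by a smaller fold and with many more reads. It had 666 and 476 reads in Col-0, or 35.3 and 30.4 CPM. The libraries labelled co-SAIL had 261 and 194 reads (15.9 and 12.7 CPM). In 35S::miP1a it had 343 and 306 reads (18.2 and 20.8 CPM) and in 35S::miP1b 242 and 269 reads (13.4 and 15.2 CPM). The highest of these 6 libraries remained below the lower of the 2 Col-0 libraries.

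The log2 change of *SOC1* was -1.20 ± 0.18 (SE) in co-SAIL (adjusted p = 3.2e-08, likelihood ratio test), -0.75 ± 0.18 in 35S::miP1a (adjusted p = 0.00093) and -1.20 ± 0.18 in 35S::miP1b (adjusted p = 4.2e-09). These are changes of 2.29-, 1.69- and 2.30-fold, below the minimum of 4-fold. In limma on the reads per library, *SOC1* was lower with an adjusted p of 0.00538, 0.0103 and 0.000359 in the same order. With a dispersion of 0.04 in the likelihood ratio test, its adjusted p was 0.0133, 0.2 and 0.00298, past 0.001 in 0 of the 3 comparisons. The change in 35S::miP1a did not pass an FDR of 0.001 when any 1 of its 4 libraries was left out, with adjusted p-values between 0.00195 and 0.0619 and log2 changes between -0.86 and -0.64. In co-SAIL it narrowly missed without the shallower co-SAIL library (adjusted p = 0.00103).

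**Figure D2:**
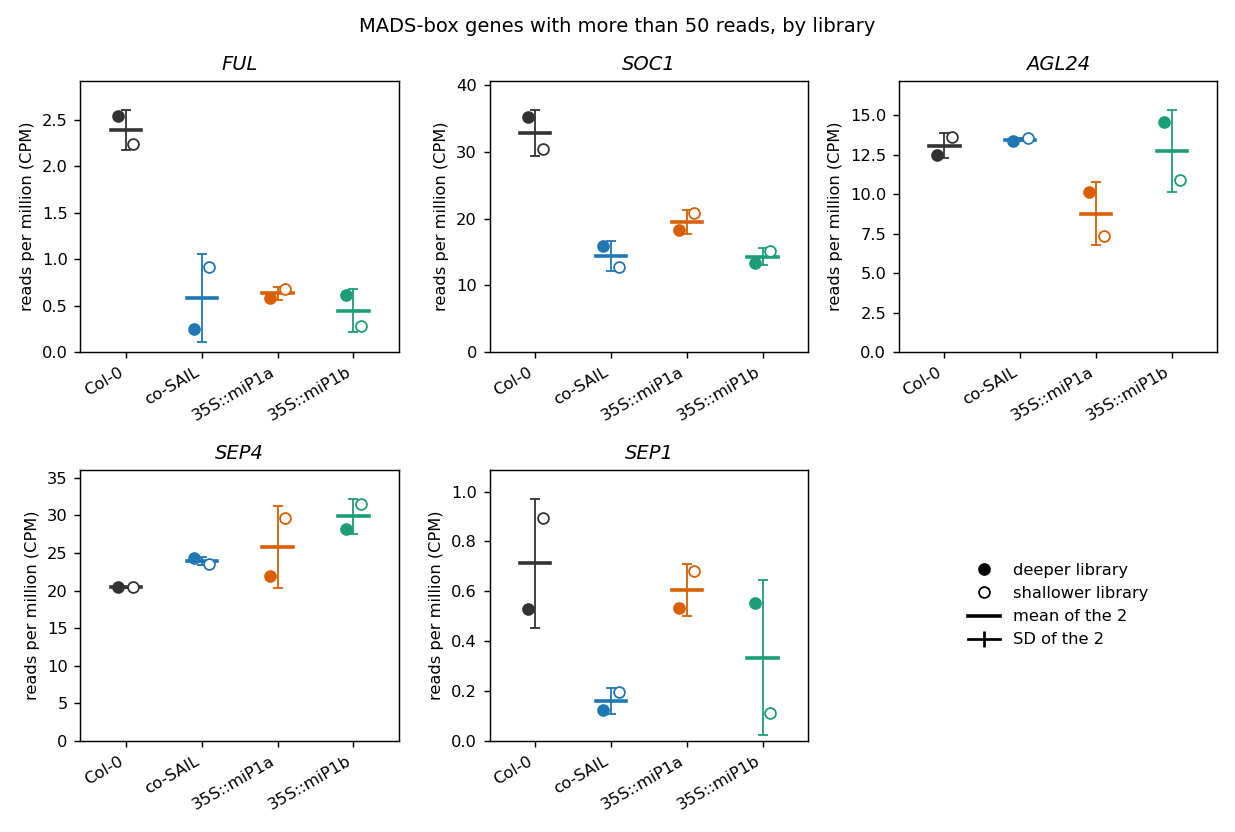
CPM of *FUL*, *SOC1*, *AGL24*, *SEP4* and *SEP1* in each library, with points for the deeper (filled) and shallower (open) library, a bar for the mean of the 2 and whiskers for their SD. *FUL* and *SOC1* are higher in both Col-0 libraries than in any other library, and *AGL24* and *SEP4* are not.

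Ratios between genes within a library do not depend on its size. Per kb of exon, *SOC1* was at 1.62 and 1.40 times the level of *SEP4* in the Col-0 libraries. The ratio was 0.615 and 0.508 in co-SAIL, 0.779 and 0.660 in 35S::miP1a, and 0.445 and 0.451 in 35S::miP1b. *SOC1* thus changed from the more to the less abundant transcript of this pair in every library outside wild type. The ratio of *FUL* to *SOC1* was 0.0859 and 0.0876 in Col-0 and lower in 35S::miP1a, at 0.0382 and 0.0390, and in 35S::miP1b, at 0.0542 and 0.0222. In co-SAIL it was 0.0183 in the deeper library and 0.0860, a value like that of wild type, in the shallower one. The ratio of *SOC1* to *AGL24* was 2.1 and 1.66 in Col-0, 0.886 and 0.700 in co-SAIL and 0.684 and 1.04 in 35S::miP1b. In 35S::miP1a it was 1.34 and 2.11, which overlapped wild type, and *SOC1* remained the more abundant of these 2 in both libraries. These ratios are descriptions and were not tested.

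Counted over the set, 2 of the 9 genes, *FUL* and *SOC1*, were lower at an FDR below 0.001 in each of the 3 comparisons with Col-0, and 0 were higher. The background of all genes called lower by this rule was 0.993% in co-SAIL, 1.44% in 35S::miP1a and 3.69% in 35S::miP1b. With the 4-fold minimum, the set held 1 called gene in co-SAIL, 0 in 35S::miP1a and 1 in 35S::miP1b, and the background was 0.196%, 0.310% and 1.38%. By limma at an adjusted p below 0.05, 1, 1 and 2 genes of the set were lower, beside 0.437%, 1.58% and 4.74% of the 17386 genes tested. The median log2 change of the 9 genes, with genes of 3 or fewer reads set to 3, was 0.00 in co-SAIL, -0.22 in 35S::miP1a and -0.04 in 35S::miP1b, and over all genes it was 0.00. The 3 comparisons have the Col-0 libraries in common, so their calls are not independent of each other.

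**Figure D3:**
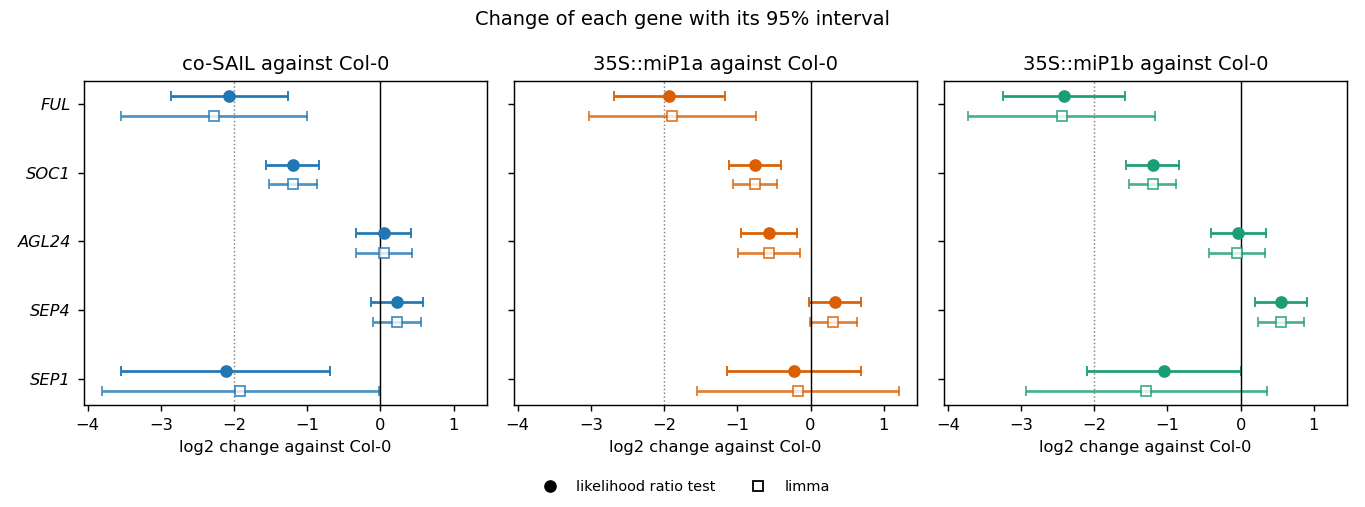
Log2 change against Col-0 of 5 MADS-box genes in each genotype, with 95% intervals from the likelihood ratio model (circles) and from limma on reads per library (squares). The dotted line marks a 4-fold decrease. All intervals of *FUL* and *SOC1* lie below 0, and the limma intervals of *FUL* are the wider of the 2.

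*AGL24* acts with *SOC1* in a loop of mutual activation at the shoot tip. In leaves its level in co-SAIL and 35S::miP1b overlapped that of wild type. It had 236 and 213 reads in Col-0, 219 and 206 in co-SAIL and 263 and 193 in 35S::miP1b. Its log2 change in co-SAIL was 0.04, with a 95% interval from -0.33 to 0.42, and in 35S::miP1b -0.04, from -0.41 to 0.34, so a decrease of the size seen for *SOC1* lies outside both intervals. In 35S::miP1a it had 191 and 108 reads, and both libraries, at 10.2 and 7.35 CPM, were below those of Col-0, at 12.5 and 13.6. That log2 change was -0.57 ± 0.20 (SE), with an adjusted p of 0.0457 in the likelihood ratio test, which does not pass an FDR of 0.001, and 0.133 in limma. Its 95% interval there, from -0.95 to -0.18, includes the change of -0.75 found for *SOC1*, and the difference between the 2 genes was not tested.

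*SEP4*, one of 4 partly redundant *SEPALLATA* genes and the one known to be transcribed in leaves as well as flowers, was the steadiest of the set in wild type. It had 386 and 319 reads in Col-0, or 20.4 CPM in each library. The other libraries ranged from 21.95 CPM in 35S::miP1a to 31.5 CPM in 35S::miP1b, all above Col-0. The log2 change was 0.23 ± 0.18 in co-SAIL, 0.33 ± 0.18 in 35S::miP1a and 0.55 ± 0.18 (SE) in 35S::miP1b. In 35S::miP1b the adjusted p was 0.0238 in the likelihood ratio test and 0.0385 in limma, which passes 0.05 and not 0.001. *SEP4* was not lower than wild type in any library, in contrast to *FUL* and *SOC1*.

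*SEP1*, another *SEPALLATA* gene, was weakly expressed, with 10 and 14 reads in Col-0. It had 2 and 3 reads in co-SAIL, 10 and 10 in 35S::miP1a and 10 and 2 in 35S::miP1b. Both co-SAIL libraries were below both Col-0 libraries, with a log2 change of -2.11 ± 0.73 (SE), but the adjusted p was 0.0333 in the likelihood ratio test and 0.538 in limma. Its interval in 35S::miP1a ran from -1.14 to 0.69, which is too wide to place it with either *SOC1* or *SEP4*.

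The remaining 4 genes gave too few reads for a comparison. *SEP2* had 2 and 2 reads in Col-0, 1 and 0 in co-SAIL, 0 and 1 in 35S::miP1a and 0 in both libraries of 35S::miP1b. *SEP3*, central to the protein complexes that specify floral organs, had 6 and 2 reads in 35S::miP1a and 1 read in each of the other genotypes. *AGL42*, a relative of *SOC1* that promotes flowering, had 0 reads in Col-0 and 2, 1 and 3 in co-SAIL, 35S::miP1a and 35S::miP1b. *AP1*, the floral meristem identity gene downstream of FT at the shoot tip, had 1 read in all 8 libraries. With 3 reads taken as the most that a count of 0 allows, a transcript unseen in Col-0 was below 0.0869 CPM over its 2 libraries. Floors cover counting error alone, intervals cover counting error and the dispersion of the test, and reads are not independent molecules.

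Some pairs of the set have identical stretches in their exons, the longest being 56 bases between *AP1* and *CAL*, 34 between *FUL* and *SEP3* and 32 between *SEP1* and *SEP2*. How reads that fit 2 genes were counted is not given in the sources used here, so low counts of these genes are uncertain to that extent.

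The other 3 genotypes were also compared directly, without the Col-0 libraries. Of the 9 genes, 0 passed an FDR below 0.001 in any of these 3 comparisons. Over all genes the share was 3.37% between 35S::miP1a and co-SAIL, 2.53% between 35S::miP1b and co-SAIL and 3.21% between 35S::miP1b and 35S::miP1a. At shares this small, 0 of 9 genes does not set these genes apart from the background. At an unadjusted p below 0.05 there were 4, 0 and 3 genes of the set in the same order, and by limma at an adjusted p below 0.05 there were 0. The share of all genes at that unadjusted limit is not given here, so the unadjusted counts cannot be set against a background. *AGL24* was lower in 35S::miP1a than in co-SAIL, with a log2 difference of -0.61 ± 0.20 (SE, adjusted p = 0.0306, likelihood ratio test, and 0.121 in limma), and 35S::miP1b was above 35S::miP1a by 0.53 (adjusted p = 0.092, likelihood ratio test). *SOC1* stood in the opposite order, with 35S::miP1a above co-SAIL by 0.44 ± 0.19 (SE, log2, adjusted p = 0.144, likelihood ratio test). It was also higher there than in 35S::miP1b, where the log2 difference from 35S::miP1a was -0.45 (adjusted p = 0.161, same test). In level, *SOC1* was ordered Col-0, 35S::miP1a, co-SAIL and 35S::miP1b. Both libraries of 35S::miP1a lay above those of co-SAIL and of 35S::miP1b, and the 95% intervals, from 0.07 to 0.81 and from -0.81 to -0.08, did not include 0, although the adjusted p did not pass. The neighbours co-SAIL and 35S::miP1b overlapped, with a log2 difference of -0.01 and a 95% interval from -0.38 to 0.37. For *FUL* the intervals between genotypes were wide, from -0.83 to 1.1 for 35S::miP1a against co-SAIL.

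Of 12 genes upstream of the set or partners of FT, 10 were in the tables, and those lower at an FDR below 0.001 were *FT* alone in co-SAIL and *FT* with *TSF* in 35S::miP1a and 35S::miP1b. None was higher at that FDR in these comparisons by the likelihood ratio test. *FT*, the mobile signal, had 244 and 95 reads in Col-0, 15 and 4 in co-SAIL, 0 in both libraries of 35S::miP1a and 1 and 0 in 35S::miP1b. That is a log2 change of -3.99 ± 0.38 (SE) in co-SAIL. With 3 reads taken for each transgenic genotype the drop came to at least 110-fold in 35S::miP1a and to 117-fold in 35S::miP1b. The value for 35S::miP1b is not a lower limit, since 3 reads is the most that a count of 0 allows and 1 read was seen. Without the deeper Col-0 library, which held most of the reads, the log2 change in co-SAIL was -3.33 and the drops taken at 3 reads were 67.9- and 72.5-fold. In co-SAIL the log2 change was -5.17 without the deeper and -3.39 without the shallower co-SAIL library. With 1 library of the transgenic genotype left out, which raises the floor, the drops taken at 3 reads fell to between 48.1- and 61.6-fold. *TSF*, its closest homologue, had 30 and 21 reads in Col-0, 9 and 7 in co-SAIL, and 0 in all 4 libraries of the transgenic genotypes, at least 16.5- and 17.6-fold lower than wild type, and from 7.24- to 9.27-fold with 1 transgenic library left out.

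*FT* thus still gave reads in both co-SAIL libraries and nearly none in the transgenic ones, a difference that *FUL* and *SOC1* did not show. Between 35S::miP1a and co-SAIL, *FT* was at least 6.72-fold lower (adjusted p = 1.5e-05, likelihood ratio test, and 0.272 in limma), a bound of 2.94-fold without the deeper co-SAIL library, while *FUL* and *SOC1* were 0.14 and 0.44 higher on the log2 scale. The 2 Col-0 libraries also differed in *FT*, at 12.9 and 6.08 CPM, and far less in *FUL*, at 2.54 and 2.24. Across the 12816 genes with at least 100 reads in Col-0, the median absolute log2 difference between these libraries was 0.20, and it was 0.21 for *SOC1*. For *FUL* the difference was 0.18, but with 83 reads in Col-0 it is not among those genes and its counting error is larger than that of *SOC1*. *FD*, the partner of FT, and *CO* were called in 0 of the 3 comparisons, and *FD* had between 39 and 63 reads in every library. *SPL4*, named here after its values were seen, was above both Col-0 libraries in 35S::miP1a, with 215 and 113 reads against 105 and 83 (log2 change 0.82 ± 0.21 SE, adjusted p = 0.0025, likelihood ratio test).

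Among 7 MADS-box repressors of *SOC1*, all in the tables, 0 were lower at an FDR below 0.001, and 3, 2 and 1 were higher in co-SAIL, 35S::miP1a and 35S::miP1b. The share of all genes higher by this rule is not given here, so these counts have no background beside them. *MAF5*, a relative of *FLC* in a tandem cluster with *MAF2*, *MAF3* and *MAF4*, passed the 4-fold minimum in all 3 genotypes. It had 4 and 13 reads in Col-0, 131 and 114 in co-SAIL, 317 and 205 in 35S::miP1a and 78 and 18 in 35S::miP1b. Its log2 changes were 3.96 ± 0.40, 4.95 ± 0.39 and 2.42 ± 0.41 (SE), and in limma the adjusted p was 0.0398, 0.00306 and 0.131. The change was 3.21 in co-SAIL and 4.21 in 35S::miP1a without the deeper Col-0 library, which had 4 reads, and 5.17 and 6.16, with 3.64 in 35S::miP1b, without the shallower one, which had 13. The call in 35S::miP1b did not hold without the deeper 35S::miP1b library (log2 change 1.03, adjusted p = 0.237, likelihood ratio test) or without the deeper Col-0 library (adjusted p = 0.00308). *MAF5* was highest in 35S::miP1a, where *SOC1* was the least reduced, but the differences in *SOC1* between these genotypes did not pass the test. A relation between *MAF5* and *SOC1* was not tested. Reads of the *MAF* cluster may be divided among similar copies, and identity between these genes was not measured here.

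The other repressors higher in co-SAIL were *MAF4* and *FLC*, named after their values were seen, by 1.49 and 1.38 on the log2 scale (adjusted p = 1.4e-06 and 7.6e-05, likelihood ratio test), with 0.132 and 0.458 in limma. Leaving out the shallower co-SAIL library took *MAF4* to 0.99 (adjusted p = 0.0782, same test), and leaving out the deeper Col-0 library took *FLC* to 1.19 (adjusted p = 0.0418). These calls were also lost without the deeper Col-0 library for *MAF4* (adjusted p = 0.00137) and without either co-SAIL library for *FLC* (adjusted p = 0.00223 and 0.00392). *MAF4* was also higher in 35S::miP1a, with 84 and 64 reads against 39 and 32 (adjusted p = 0.000861, likelihood ratio test), a call that was lost with any 1 of the 4 libraries left out (adjusted p between 0.00779 and 0.0259). *FLC* had 15 reads in the deeper and 82 in the shallower 35S::miP1b library, the largest gap between libraries of 1 genotype among the repressors, whereas *SOC1* had 242 and 269 there. *SVP*, the repressor with the most reads, had 2071 in Col-0 and 2012, 1669 and 2042 in the others and passed the test in 0 of the 3 comparisons.

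**Figure D4:**
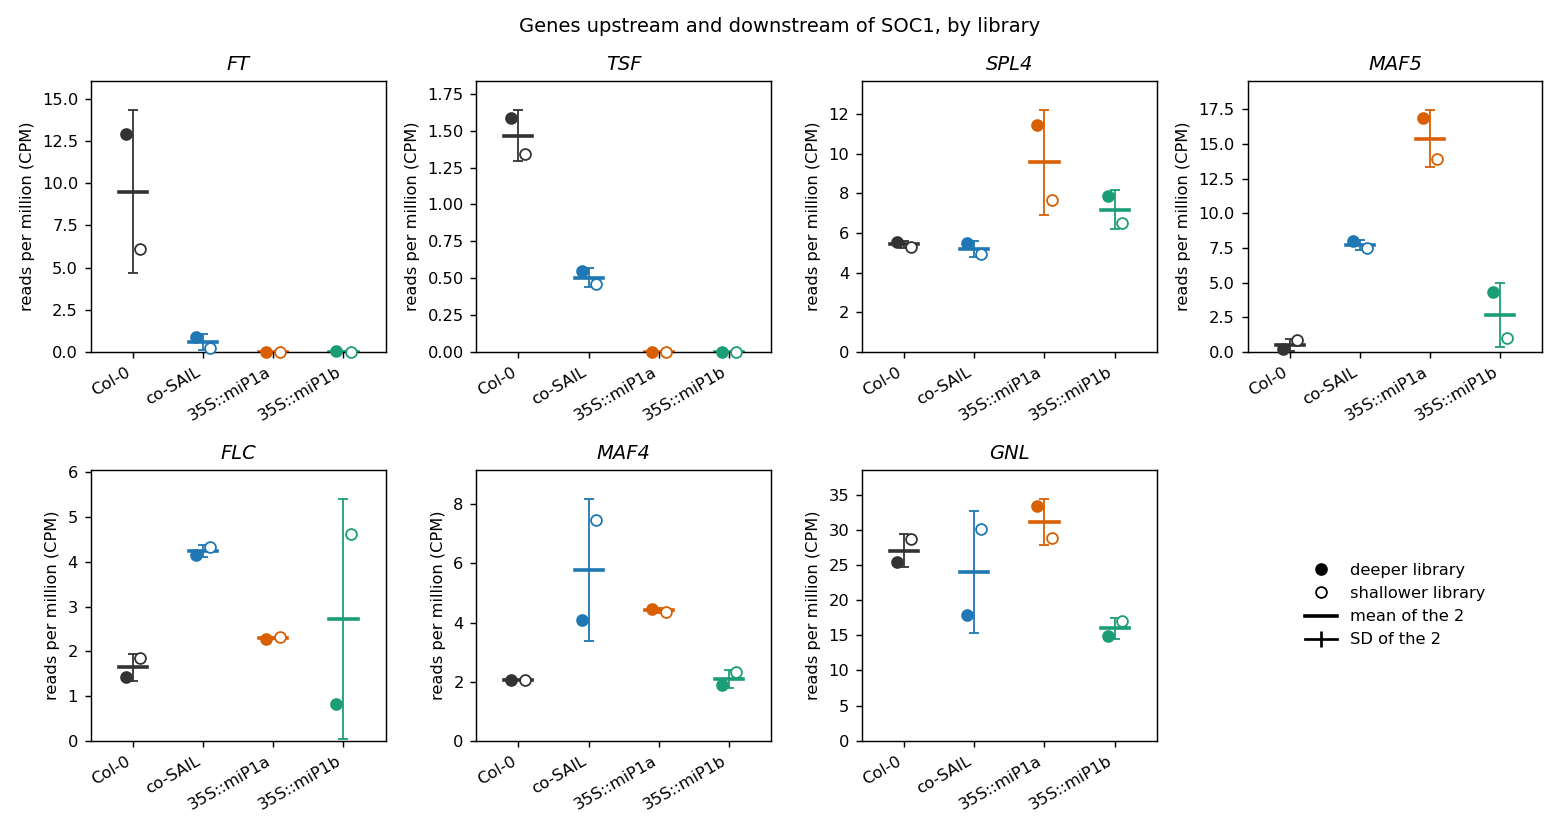
CPM of genes that act upstream of *SOC1* (*FT*, *TSF*, *SPL4*), of its MADS-box repressors (*MAF5*, *FLC*, *MAF4*) and of its target *GNL* in each library, with symbols as in the plot of the MADS-box genes. *FT* and *TSF* are at or near 0 in 35S::miP1a and 35S::miP1b and above 0 in co-SAIL, and *FLC* differs between the 2 libraries of 35S::miP1b.

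*GNC* and *GNL* are GATA transcription factors of greening that *SOC1* represses. Neither was higher at an FDR below 0.001 in any of the 3 genotypes with less *SOC1* transcript. *GNC* had 2496 reads in Col-0 and 2690, 1906 and 2637 in co-SAIL, 35S::miP1a and 35S::miP1b, with adjusted p-values of 0.663, 0.201 and 0.995 in the likelihood ratio test. *GNL*, named after its values were seen, was lower in 35S::miP1b, with 270 and 301 reads against 479 and 448 (log2 change -0.76 ± 0.18 SE, adjusted p = 0.0008, likelihood ratio test, and 0.0364 in limma). With any 1 of the 4 libraries left out its adjusted p in the likelihood ratio test was between 0.00334 and 0.0431. In co-SAIL *GNL* had 293 and 458 reads, so its 2 libraries differed by more than they did from wild type.

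Of 7 further genes of the *SOC1* and *FUL* clades or related to the *SEP* genes, 6 were in the tables and 0 passed the FDR in any comparison with Col-0. *AGL19*, a relative of *SOC1*, had 10 and 14 reads in Col-0, 18 and 9 in co-SAIL, 10 and 13 in 35S::miP1a and 9 and 7 in 35S::miP1b. The other 5, *AGL6* next to *SOC1* on the chromosome among them, had at most 2 reads in a genotype. At an FDR below 0.001 in the likelihood ratio test, 2 of the 5 leaf markers were higher in 35S::miP1a and 0 in co-SAIL and 35S::miP1b. At an unadjusted p below 0.05 there were 2, 2 and 3 that differed in co-SAIL, 35S::miP1a and 35S::miP1b. Shares of all genes higher at that FDR, or differing at that unadjusted limit, are not given here. These counts of markers therefore have no background beside them. Of the 5, limma could test *LHCB2.1* alone, because the others were kept as totals per genotype. By limma *LHCB2.1* was higher at an adjusted p below 0.05 in 35S::miP1a and 35S::miP1b and not in co-SAIL. The 2 markers higher in 35S::miP1a by the likelihood ratio test were *LHCB1.1* and *LHCB2.1*, antenna proteins of the photosystems, by 1.29 and 1.41 on the log2 scale. *LHCB2.1* was at 18.9 and 21.6 CPM in Col-0, 31.1 and 34.6 in co-SAIL, 56.5 and 50.9 in 35S::miP1a and 37.7 and 28.3 in 35S::miP1b, so that every other library was above both of Col-0. *LHCB1.1* was at 112 CPM in Col-0, 186 in co-SAIL and 274 in 35S::miP1a, but lower than Col-0 in 35S::miP1b, at 76.5. The 5 leaf markers summed to 32363 CPM in Col-0, 34631 in co-SAIL, 37628 in 35S::miP1a and 36105 in 35S::miP1b. Their part in the other values was not tested. Over the floral organ markers the reads of both libraries summed to 21 in Col-0, 26 in co-SAIL, 16 in 35S::miP1a and 16 in 35S::miP1b.

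By distance over the 3 log2 changes, 18178 genes with at least 50 reads in all and more than 3 in each genotype were set beside *FUL* and *SOC1*. The nearest to *FUL* were AT3G48630 (54 reads in Col-0, then 14, 17 and 11), AT3G56790 (45, then 8, 11 and 11) and AT1G65484 (62, then 15, 18 and 16), at distances from 0.428 to 0.482. The nearest to *SOC1* were *NUDT5* (AT2G04430), *FRB1* (AT5G01100) and *PARG2* (AT2G31865), at distances from 0.245 to 0.247. *PARG2* had 667 reads in Col-0 and 244, 433 and 272 in the others. This likeness rests on 3 values for each gene that have the Col-0 libraries in common.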

How the data were processed

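Leaf RNA of 4 genotypes was sequenced on an Illumina instrument as 8 libraries. The authors trimmed reads with Trimmomatic 0.32, mapped them to TAIR10 with Bowtie in RobiNA, counted them per gene and fitted edgeR 2.6.12 with its default normalization (tools and versions also stand in the submitters' processing notes). The deposited log2 values are the fold change of Col-0 over each genotype and the mean abundance per gene, and the deposited score is the likelihood ratio of each comparison. The tables also hold p-values and FDRs of the authors' comparisons, which were not used. Fold changes and ratios served only to recover reads.

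Genes with 1 read in all, 353 of them, took 8 distinct values, which gave the effective size of each library and the dispersion, 0.0132. For 19449 genes with at most 10000 reads in all, whole reads per library were searched that return the mean abundance and the 3 fold changes, with a prior count of 0.5 in total. Solutions were kept only where they also returned the 3 likelihood ratios, which the search itself did not use. A single solution was kept for 19447 genes, 88.6% of 21960. Their likelihood ratios agreed within 0.001% for every recovered gene with a ratio over 2. That agreement was a condition of recovery and not a separate check. Other genes were kept as totals per genotype. On simulated tables, 200 of 200 genes were returned exactly. The recovered reads carry no replicate number.

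The main test was a negative binomial likelihood ratio test (1 degree of freedom) on these reads, Benjamini-Hochberg adjusted over 21960 genes, with the study's limits of FDR 0.001 and 4-fold. The design foresaw reads per genotype only, and reads per library were used once they could be had. In simulated data for co-SAIL against Col-0 (19447 genes), the test found 70 of 100 genes lowered 2-fold, 100 of 100 lowered 8-fold and 0 of 19247 unchanged. The simulation used the same shared dispersion that the test assumes, so it does not measure false calls among genes with a wider spread. Its lowered genes were taken from genes with more reads than *FUL* or *SEP1*. Standard errors combine counting error and the dispersion, and intervals are 95%. limma 3.58.1 (voom, genes with at least 10 reads, R 4.3.3) was added after seeing the data. In the same simulation limma called 13 of 17181 unchanged genes at an adjusted p below 0.05.

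The genes and context lists were chosen with earlier results of these data known. Genes named are all 10 of the set, called genes of each list or, with none, the one with the most reads, *CO* and *FT*, and the 3 nearest in pattern to *FUL* and *SOC1*. Others are marked as named after their values were seen. Positions, exon lengths and promoters come from RefSeq TAIR10.1, joined by locus. Scripts ran in Python 3.11.15 (SciPy 1.17.1, NumPy 2.4.6), with figures drawn in matplotlib 3.10.9.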

Additional observations from a re-analysis of the deposited data

How the results depend on the processing

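No paired analysis was possible because the recovered reads of a library could not be linked to the replicate numbers of the labels. The count of genes of the set called in co-SAIL, 1 in the main test, was 0 with a dispersion of 0.04 or 0.16, 2 with a minimum fold change of 2, with none, or at an FDR of 0.05, and 0 in limma with the 4-fold minimum. In 35S::miP1a the count of 0 became 1 with a minimum of 2-fold, 2 with none and 1 in limma with no minimum. In 35S::miP1b the count of 1 became 0 with a dispersion of 0.16, 2 with a minimum of 2-fold or none, and 3 in limma with no minimum, where *SEP4* was higher. Leaving out 1 library gave between 0 and 1 called genes in each of these 3 comparisons, and 0 in each comparison between the other genotypes. With a dispersion of 0.04, *FUL* kept an FDR below 0.001 in 35S::miP1b alone and *SOC1* in 0 comparisons (adjusted p = 0.0133, 0.2 and 0.00298, likelihood ratio test). With 0.16, neither did in any comparison. Centring the changes, testing only genes with at least 1 CPM, and leaving out the prior count moved 0 of these counts, and the direction of *FUL* and *SOC1* against Col-0 was the same under each alternative run. With 2 libraries in a genotype and 16 to 21 reads of *FUL* outside wild type, depth limits what can be said of its differences between those genotypes.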

Other observations

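Other genes had wide gaps between the libraries of a genotype. *MAF5* was at 4.32 CPM in the deeper and 1.02 CPM in the shallower 35S::miP1b library, and *FLC* at 0.831 and 4.63 CPM, in the opposite order. In co-SAIL, *GNL* was at 17.9 and 30.1 CPM and *MAF4* at 4.09 and 7.49 CPM. Among genes with at least 100 reads in a genotype, the absolute log2 difference between its libraries had a median of 0.20 in Col-0, 0.18 in co-SAIL, 0.13 in 35S::miP1a and 0.14 in 35S::miP1b, with 90th percentiles of 0.55, 0.49, 0.38 and 0.41. *SOC1* lay between 0.18 and 0.32 in the 4 genotypes.

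*AG*, a floral organ gene that is silenced in leaves, had 15 reads in Col-0 and 9, 6 and 12 in co-SAIL, 35S::miP1a and 35S::miP1b. *PI* had 0 reads in Col-0 and 8 and 4 in co-SAIL and 35S::miP1a, with adjusted p-values of 0.0265 and 0.122 in the likelihood ratio test, and was named after its values were seen.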
